A study of Oryza sativa with 9 samples.

Results

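Of the 31263 rice loci in the deposited table, 75 stood far above wild type both in a Tudor-SN mutant and in its complemented line, at levels close to each other in the 2 lines. They were chosen by value. The mean over the 3 libraries of each line had to be at least 10 RPKM (read counts divided by transcript length and by the mapped reads of the library) and at least 8 times the wild type mean, and the line means had to lie within 2-fold of each other. 1 further locus, LOC_Os03g49190, met these thresholds and was left out by name, and none of the loci starting LOC_Os05g26, LOC_Os07g11 or LOC_Os06g310, left out likewise, met them. The thresholds use all 3 pairwise contrasts among the genotypes, so levels, folds and calls of the 75 loci are descriptions and no test is drawn from them.

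RNA came from dehulled developing seeds, 10 to 14 days after flowering, of plants kept at 27 °C with 12 h of light a day, with 3 biological repeats a genotype. The group pHL8042/EM1084 is EM1084 complemented by a transgene with wild type OsTSN, and so carries the mutation and the transgene (called the complemented line). EM1084 is a mutant whose Tudor-SN protein has the change E503K, and WT is the wild type. A single complemented line and a single mutant line were profiled, and no source used here gives the parent of WT and EM1084, the promoter of the construct or the number of transformation events. Differences that both lines share against WT therefore cannot be told apart from other differences between the EM1084 stock and the WT plants.

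Tudor-SN is an RNA-binding protein with repeated staphylococcal nuclease-like domains and a Tudor domain. In rice endosperm, the starchy storage tissue of the grain, it is known for binding storage protein mRNAs and for their transport to distinct parts of the endoplasmic reticulum. In a complementation design a wild type copy of a gene is put back into its mutant, and a transcript can return towards wild type or stay where the mutant had it. On RPKM as deposited, the loci described here were at least 8-fold above WT in both lines. Their levels in the complemented line lay within 2-fold of EM1084 on either side. The table pairs its MSU identifiers with no gene names, and 0 of the 31263 occur in the RefSeq gene table at hand, which is on another assembly. The 75 loci are therefore called by identifier and position as the table prints them, with no role given.

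Mapped totals derived from the steps of the RPKM values were 17022681 to 18449248 reads in the complemented line, 12805472 to 15630870 in EM1084 and 5778627 to 10551055 in WT, so 1 read per kilobase stood for 0.0542 to 0.0587 RPKM in the complemented line, 0.0640 to 0.0781 RPKM in EM1084 and 0.0948 to 0.173 RPKM in WT. OsTudor-SN itself (LOC_Os02g32350) read 348, 367 and 389 RPKM in the complemented line, 206, 212 and 221 RPKM in EM1084 and 91.1, 97.6 and 88.4 RPKM in WT. However, its log2 fold change in EM1084 against WT turned to -0.17 under median-of-ratios scaling, though it did not change sign under quantile normalization. RPKM is relative to the mapped total, and the median gene was shifted: over 15450 genes tested with limma, the median log2 fold change was 0.73 for the complemented line against WT and 1.06 for EM1084 against WT. Against WT, 11124 genes were called higher and 1139 lower in the complemented line, and 12781 higher and 823 lower in EM1084 (limma, Benjamini-Hochberg adjusted p under 0.05). Median-of-ratios scaling gave 4597 higher and 3860 lower in the complemented line and 5044 higher and 4074 lower in EM1084. Of 8 endosperm markers all were present, with summed levels of 92393 to 97161 RPKM in the complemented line, 41827 to 43551 RPKM in EM1084 and 76341 to 85504.5 RPKM in WT. The sum is carried by storage protein genes. With limma 3 of the 8 were called higher and 3 lower in EM1084 against WT, and 5 higher and 0 lower in the complemented line. NF-YB1 (LOC_Os02g49410), an endosperm transcription factor gene, averaged 32.4 RPKM in the complemented line, 58.2 RPKM in EM1084 and 5.37 RPKM in WT. It was the extreme of the 8 in EM1084, with a log2 fold change of 3.24, while AGPS2 (LOC_Os08g25734) and ISA1 (LOC_Os08g40930), also called higher there, were at 0.22 and 0.27. Of 8 embryo and aleurone markers none was at 0 throughout a genotype, and they summed to 1105 to 1282 RPKM, 760.3 to 945 RPKM and 1309.6 to 1442 RPKM in the complemented line, EM1084 and WT. With limma 7 of these were tested, and in each line 3 were called higher and 4 lower than in WT. The oleosin gene LOC_Os04g46200, an oil body marker of embryo and aleurone, averaged 781 RPKM in the complemented line, 643 RPKM in EM1084 and 113 RPKM in WT. By contrast RAB16A (LOC_Os11g26790), a dehydrin gene, averaged 171, 56.2 and 429 RPKM in that order. The 7 green tissue markers summed to 5.28 to 7.45 RPKM, 5.04 to 6.81 RPKM and 3.51 to 4.35 RPKM in that order, and LOC_Os01g52240 alone was at 0 throughout a genotype, the complemented line. None of these markers is among the 75 loci, and their part in the levels below was not tested. In bulk seed, more cells of a type and more RNA per cell cannot be told apart.

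Together the 75 loci took a small share of reads in both lines and a far smaller one in WT. Their summed level was 3875, 4296 and 4241 RPKM in the 3 complemented libraries, 4162, 4379 and 4394 RPKM in the 3 EM1084 libraries and 228, 212 and 208 RPKM in the 3 WT libraries. They took 0.356% to 0.399% of mapped reads in the complemented line, 0.394% to 0.421% in EM1084 and 0.0225% to 0.0249% in WT. The median locus averaged 27.5 RPKM in the complemented line, with a range of 10.3 to 368. It averaged 33.8 RPKM in EM1084, with a range of 10.8 to 616, and 1.75 RPKM in WT, with a range of 0 to 39.5. The set reaches over a wide span of abundance, with 9 loci at 100 RPKM or more over both lines, 21 at 50 RPKM or more and 21 under 20 RPKM.

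**Figure D1:**
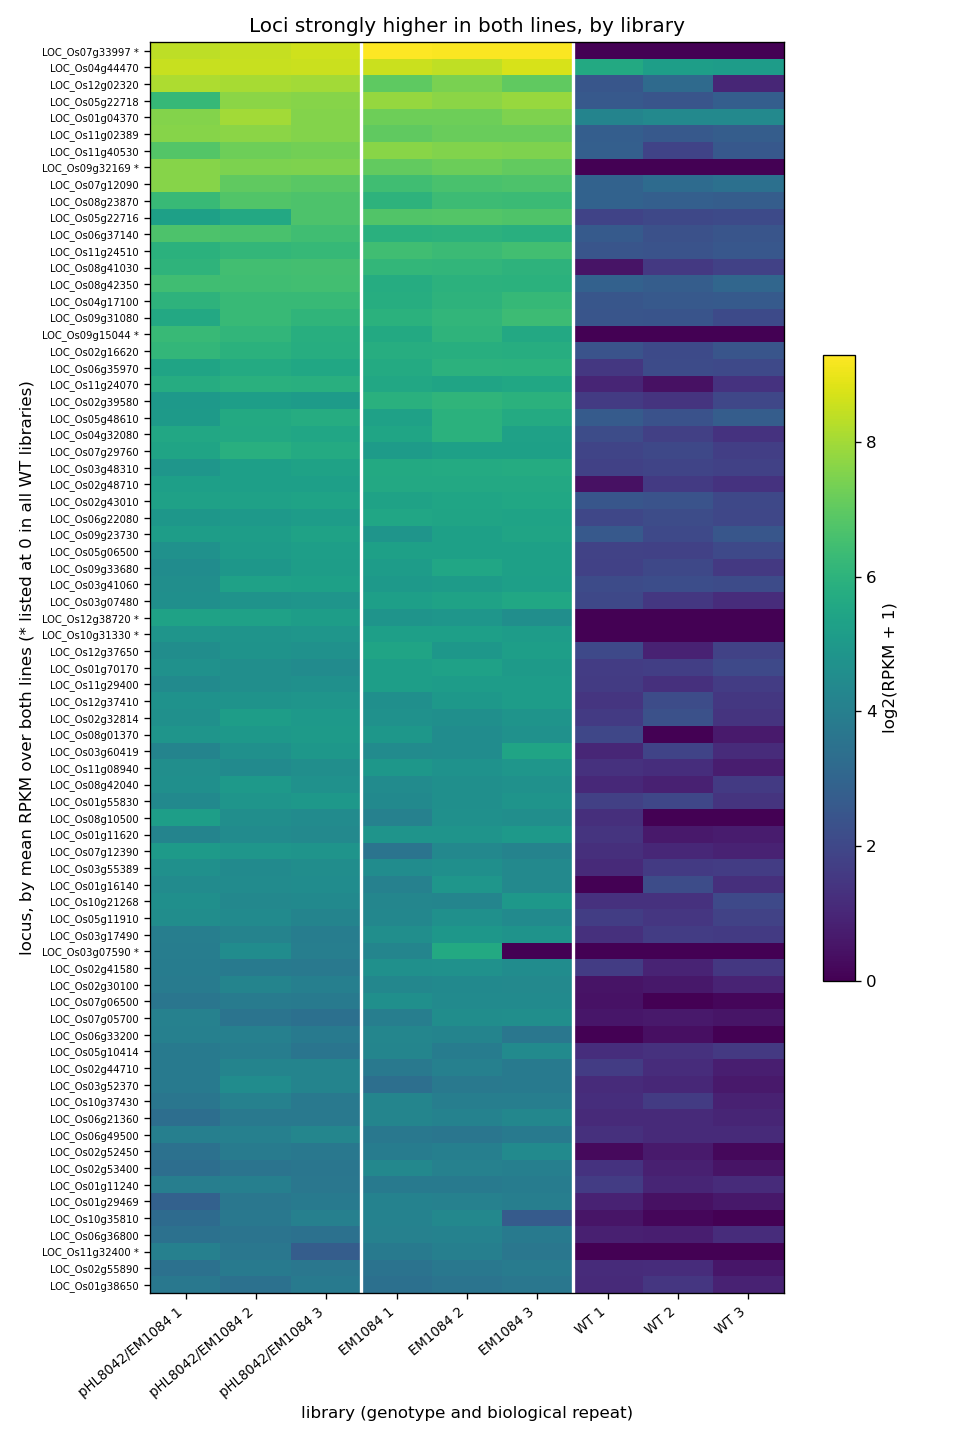
Level of each of the 75 loci (rows, by mean over both lines) in each of the 9 libraries (columns), as log2(RPKM + 1). In nearly every row the 3 WT columns are darker than the 6 line columns (LOC_Os03g07590 has an EM1084 library at 0), and an asterisk marks the 7 loci listed at 0 in all WT libraries.

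In 74 of the 75 loci all 6 libraries of the lines lay above all 3 WT libraries, which also held for 66.1% of all genes tested. The exception, LOC_Os03g07590, was listed at 0 in 1 EM1084 library. With limma, 75 were called higher in the complemented line against WT, beside 72% of all genes tested, and 74 higher in EM1084 against WT, beside 82.7% of them. None was called lower in either, beside 7.37% and 5.33% of all genes tested in the complemented line and EM1084. The thresholds used both contrasts, so nothing is read from these counts. Every one of the 75 passed the filter on low values (1 RPKM in at least 3 libraries) through the 2 lines in which it was chosen to be high. Folds stand apart from the call: only 100 of 31263 loci, 0.32% of them, had both line means at 10 RPKM or more and 8 times WT, and 76 of these were within 2-fold between the lines. Over the 68 loci with any WT reads, the median fold over WT was 14.1 in the complemented line (8.07 to 145) and 15.2 in EM1084 (8.32 to 155). At a stricter level, 22 of the 68 were at least 16-fold above WT in both lines and 7 were at least 32-fold above.

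**Figure D2:**
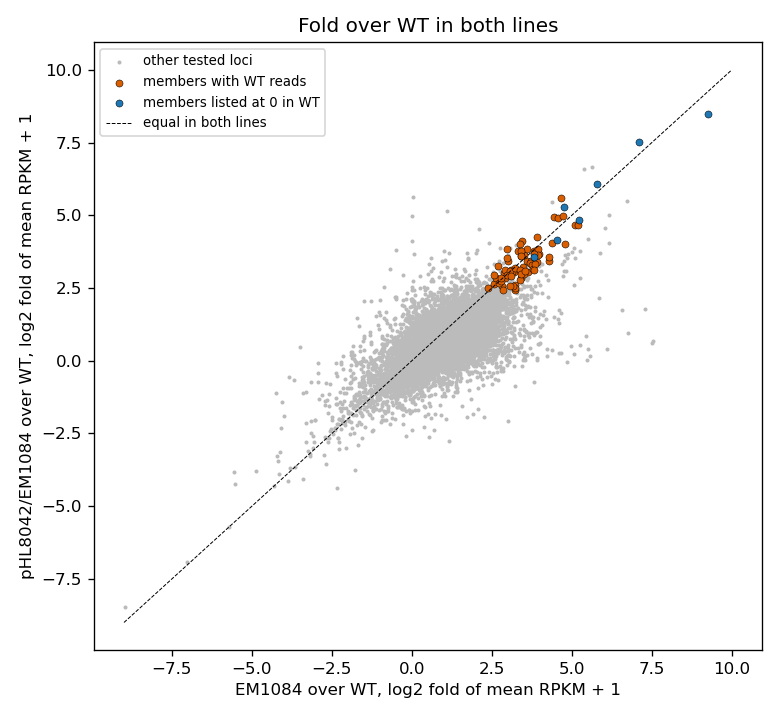
Fold over WT of all genes tested, EM1084 on the x axis and the complemented line on the y axis, as log2 of mean RPKM + 1. The 75 chosen loci lie along the line of equal folds at the upper right, and the 7 listed at 0 in WT (blue) include the highest, LOC_Os07g33997.

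The most abundant of all, LOC_Os07g33997 (chromosome 7, 20310035 to 20312111, plus strand), had no read in any WT library. It stood at 328, 352 and 394 RPKM in the complemented line, 627, 611 and 609.7 RPKM in EM1084 and 0, 0 and 0 RPKM in WT. These values rest on 12212 reads in the complemented line and 17142 reads in EM1084. Against a floor of 3 reads over the 3 WT libraries, 0.184 RPKM, it was at least 1949-fold higher in the complemented line and at least 3356-fold higher in EM1084. Such floors take each read as a separate count, but PCR copies cannot be told from separate molecules in these libraries. Among WT values of 1 to 20 reads 62.6% to 64.2% were even, for a reason not tested, so the bounds may be set too high.

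Altogether 7 of the 75 loci were listed at 0 in all WT libraries, and only 1 other locus with both line means at 10 RPKM or more was. Zero in WT is common in the table as a whole, at 8056 loci or 25.8%, but rare at this level in the lines. LOC_Os09g32169 (chromosome 9, 19195347 to 19196161, minus strand) read 194, 176 and 182 RPKM in the complemented line, 132, 148 and 132 RPKM in EM1084 and 0 in WT. The complemented libraries were above those of EM1084, and the locus was at least 958-fold and at least 716-fold higher than WT in the complemented line and EM1084. LOC_Os09g15044, also on chromosome 9 (9087462 to 9088467), read 76.1, 67.9 and 55.2 RPKM in the complemented line, 49.6, 64.8 and 47.5 RPKM in EM1084 and 0 in WT. Here the lines overlapped as deposited and the complemented line was above EM1084 under both scalings.

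LOC_Os12g38720 (chromosome 12, 23782739 to 23783531) read 40.03, 38.6 and 35.4 RPKM in the complemented line, 27.4, 28.4 and 22.9 RPKM in EM1084 and 0 in WT. LOC_Os10g31330 (chromosome 10, 16428825 to 16430091) read 27.5, 26.8 and 28.2 RPKM in the complemented line, 37.2, 36.8 and 34.2 RPKM in EM1084 and 0 in WT. In both of these the lines did not overlap, with the complemented line above EM1084 in the first and below it in the second. At LOC_Os10g31330 this order was lost under both scalings, where the lines overlapped. The bounds for LOC_Os12g38720 were at least 257-fold in the complemented line and at least 177-fold in EM1084, and those for LOC_Os10g31330 at least 297-fold and at least 389.8-fold.

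The remaining 2 zero loci were weakly covered. LOC_Os11g32400 (chromosome 11, 19132966 to 19133274) read 15.4, 11.8 and 5.70 RPKM in the complemented line, 12.9, 14.9 and 11.8 RPKM in EM1084 and 0 in WT, on 183 and 178 reads in the lines. LOC_Os03g07590 (chromosome 3, 3866687 to 3866935) read 14.2, 21.99 and 14.6 RPKM in the complemented line, 17.6, 49.5 and 0 RPKM in EM1084 and 0 in WT. Its EM1084 mean rests largely on the second library, and without that library it no longer met the thresholds. All of its 249 bases lie inside LOC_Os03g07600 on the other strand, so reads of the pair cannot be assigned with certainty where counting did not use strand. LOC_Os03g07600 averaged 28.9 RPKM in the complemented line, 63.8 RPKM in EM1084 and 32.1 RPKM in WT.

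**Figure D3:**
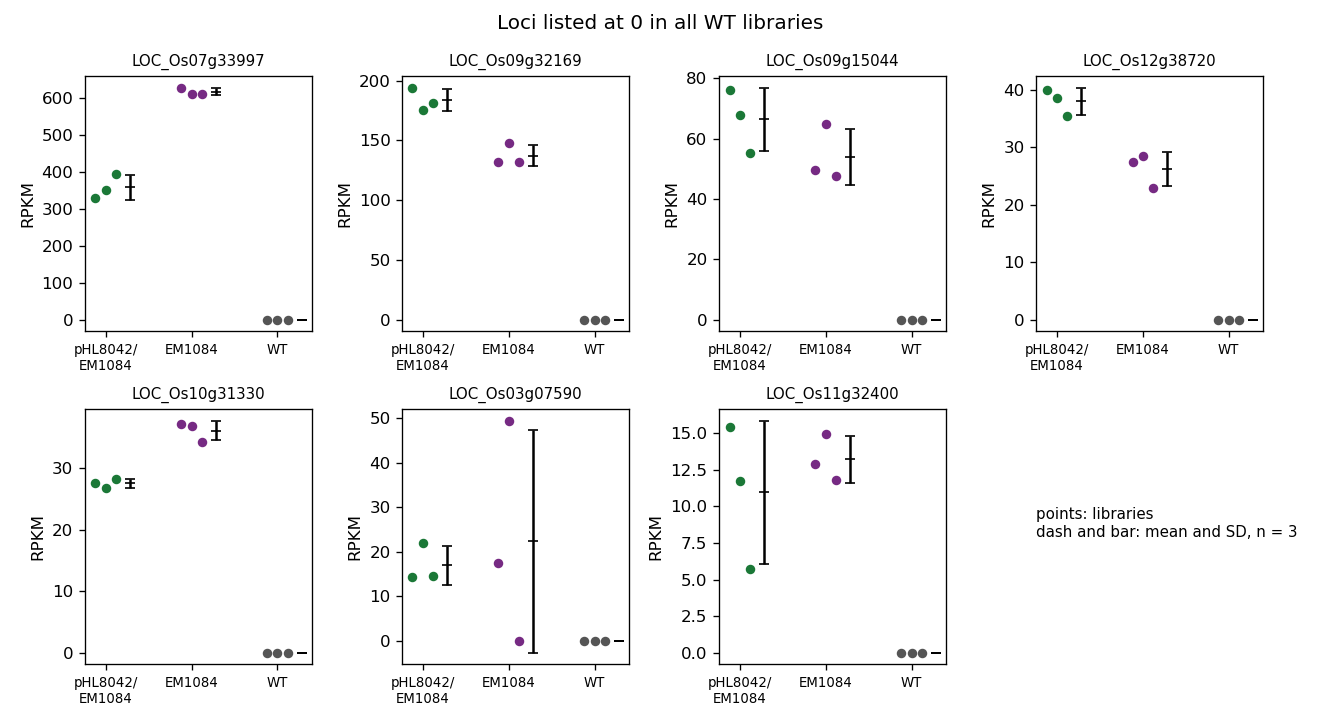
RPKM by library at the 7 loci listed at 0 in all WT libraries, with groups from left to right the complemented line, EM1084 and WT. Points are libraries and the dash with its bar is the mean and SD (n = 3), and LOC_Os03g07590 shows an EM1084 library at 0 beside one at 49.5 RPKM.

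A further 6 loci were at 0 in 1 or 2 WT libraries, and WT reads were few in general. Over the 68 loci with any, the WT reads summed over 3 libraries had a median of 60.5, from 2 to 1021. For 26 of the 75 loci the WT sum was under 30 reads and for 14 it was 10 or fewer, so the size of those folds is loosely set. LOC_Os06g33200, with the largest finite folds, had 2 WT reads against averages of 14.8 RPKM in the complemented line and 15.9 RPKM in EM1084. The other loci at least 32-fold above WT in both lines were mostly of low abundance. LOC_Os07g06500 (chromosome 7) read 11.6, 13.4 and 13.3 RPKM in the complemented line, 24.0, 20.9 and 20.8 RPKM in EM1084 and 0.366, 0 and 0.134 RPKM in WT. LOC_Os08g10500 (chromosome 8) read 36.1, 23.2 and 21.3 RPKM in the complemented line, 15.8, 24.4 and 23.2 RPKM in EM1084 and 1.37, 0 and 0 RPKM in WT, where it had 2 reads. LOC_Os11g24070 (chromosome 11) read 53.5, 59.0 and 57.1 RPKM in the complemented line, 46.2, 42.5 and 45.4 RPKM in EM1084 and 0.937, 0.321 and 1.54 RPKM in WT. The lines stood apart at the first and the third of these and overlapped at the second as deposited. Over the 68 loci the lowest library of either line was 4.69 to 39.1 times the highest WT library, with a median of 8.29. The coefficient of variation over 3 libraries had a median of 11.3% in the complemented line and 9.94% in EM1084, against 29.5% in WT, over these 68 loci.

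Of the 15 most abundant loci, 13 had WT reads, and the most abundant of these was LOC_Os04g44470 (chromosome 4, 26323827 to 26324804). It read 367, 363 and 374 RPKM in the complemented line, 371, 336 and 424 RPKM in EM1084 and 49.2, 35.6 and 33.8 RPKM in WT. It was the highest of the 75 loci in WT, and its libraries of the 2 lines overlapped as deposited. LOC_Os01g04370 (chromosome 1, 1948737 to 1949587), the next highest in WT, read 190.5, 259 and 189.8 RPKM in the complemented line, 152, 149 and 179 RPKM in EM1084 and 17.5, 19.6 and 19.9 RPKM in WT. LOC_Os04g44470 was 9.30-fold over WT in the complemented line and 9.53-fold in EM1084, and LOC_Os01g04370 was 11.2-fold and 8.44-fold in that order. LOC_Os07g12090, LOC_Os08g42350 and LOC_Os08g23870 completed the 5 highest in WT, with WT means of 8.28, 6.52 and 6.15 RPKM. Their means were 147, 86.9 and 96.1 RPKM in the complemented line and 95.6, 58.1 and 75.2 RPKM in EM1084.

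LOC_Os12g02320 (chromosome 12, 737406 to 737894) had a wider distance. It read 286, 267 and 257 RPKM in the complemented line, 127, 172 and 130.3 RPKM in EM1084 and 4.59, 8.32 and 0.986 RPKM in WT, a 58.3-fold and a 30.9-fold distance of the complemented line and EM1084 from WT. LOC_Os11g02389 (chromosome 11, 703048 to 703960) read 192, 206 and 191 RPKM in the complemented line, 129, 143 and 144 RPKM in EM1084 and 5.81, 5.01 and 5.63 RPKM in WT. In both loci every complemented library was above every EM1084 library. LOC_Os11g40530 (chromosome 11, 24180905 to 24181434) read 110.4, 152 and 158 RPKM in the complemented line, 197, 186 and 179 RPKM in EM1084 and 6.08, 2.65 and 4.90 RPKM in WT. Here every complemented library was below every EM1084 library as deposited, but the lines overlapped under both scalings, with folds of the complemented line over EM1084 of 0.748 as deposited, 0.992 under median-of-ratios scaling and 0.966 under quantile normalization.

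Among the others of the 15, LOC_Os08g41030 (chromosome 8, 25950258 to 25951166) read 64.5, 87.5 and 90.6 RPKM in the complemented line, 70.7, 69.0 and 63.5 RPKM in EM1084 and 0.417, 1.90 and 2.47 RPKM in WT. That is 50.6-fold and 42.4-fold over WT, on 33 WT reads. LOC_Os06g37140 averaged 95.3 ± 7.59 RPKM in the complemented line, 59.1 ± 2.43 RPKM in EM1084 and 4.57 ± 0.645 RPKM in WT (SD, n = 3 each). LOC_Os11g24510 averaged 68.3 ± 6.88 RPKM, 85.2 ± 4.70 RPKM and 4.49 ± 0.272 RPKM in the complemented line, EM1084 and WT (SD, n = 3 each). At LOC_Os11g24510 the complemented line was 0.802 times EM1084 as deposited, 1.07 times under median-of-ratios scaling and 1.11 times under quantile normalization. Its libraries were all below those of EM1084 as deposited, overlapped with them under median-of-ratios scaling and were all above them under quantile normalization. The lines differed by less than 2-fold as deposited in each of these, as the choice of loci requires.

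LOC_Os05g22716 and LOC_Os05g22718 are the only pair of chosen loci next to each other in the table's locus order. They lie 137 bases apart on the minus strand of chromosome 5 (12888261 to 12888584 and 12888722 to 12889132). The first read 38.1, 47.5 and 104 RPKM in the complemented line, 107, 112 and 104 RPKM in EM1084 and 2.63, 3.00 and 3.20 RPKM in WT. The second read 73.1, 203 and 193 RPKM in the complemented line, 228, 206 and 233 RPKM in EM1084 and 5.07, 4.47 and 5.89 RPKM in WT. The EM1084 libraries were close to each other, while the complemented libraries differed by more than 2-fold, and the outlying library was the third at the first locus and the first at the second. Without the third complemented library LOC_Os05g22716 no longer met the thresholds.

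Between the lines the 75 loci leaned slightly to EM1084 on RPKM as deposited, less than all genes tested did, and this lean depended on scaling. The complemented mean was below the EM1084 mean at 46 loci and above it at 29, with a median fold of 0.908 over EM1084. The median limma log2 fold change was -0.077 over the 75 loci, beside -0.34 over all genes tested. Under median-of-ratios scaling it was below at 23 and above at 52, and under quantile normalization below at 20 and above at 55. Over all genes tested the median log2 fold change was -0.011 under each of these scalings. As deposited, the 3 complemented libraries lay below the 3 of EM1084 without overlap at 26 loci (34.7%), beside 53.1% of all genes tested, and above them at 13 loci (17.3%), beside 12.5%. With limma 21 were called lower and 12 higher in the complemented line against EM1084, beside 45.3% and 10.2% of all genes tested. The bound of 2-fold used this contrast as well, and the complemented mean had to reach the level and the fold over WT. Nothing is therefore read from these counts or from how the lean compares with all genes tested.

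The largest folds of EM1084 over the complemented line were at LOC_Os02g39580, LOC_Os02g41580 and LOC_Os07g33997. LOC_Os02g39580 averaged 33.7 ± 2.26 RPKM in the complemented line, 62.1 ± 4.48 RPKM in EM1084 and 2.20 ± 0.645 RPKM in WT (SD, n = 3 each). LOC_Os02g41580 averaged 13.3 ± 0.766 RPKM in the complemented line, 23.9 ± 1.62 RPKM in EM1084 and 1.63 ± 0.637 RPKM in WT (SD, n = 3 each). The largest folds the other way were at LOC_Os12g02320, LOC_Os07g12390 and LOC_Os06g37140. LOC_Os07g12390 averaged 29.3 ± 2.97 RPKM in the complemented line, 15.6 ± 4.27 RPKM in EM1084 and 1.11 ± 0.277 RPKM in WT (SD, n = 3 each).

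Spread within a line was small for most loci. At 6 of the 75 the highest library of a line was more than 2 times its lowest, or the lowest was at 0, with 2 of them in EM1084 and 4 in the complemented line. The first complemented library was the lowest of its line at 44 of the 75 loci. That library also had the lowest median-of-ratios scaling factor of its line, so its values tended to be lower across genes in general. The matching share over all genes tested was not computed, so nothing particular to the 75 loci is read from this count. LOC_Os10g35810 read 8.59, 12.1 and 15.4 RPKM in the complemented line, 16.3, 19.3 and 5.34 RPKM in EM1084 and 0.456, 0.130 and 0 RPKM in WT. It overlaps LOC_Os10g35800 on the other strand over 971 bases, and that locus averaged 1021 RPKM in the complemented line, 261 RPKM in EM1084 and 949 RPKM in WT. These 2 loci and LOC_Os03g07590 with its partner were the only overlaps, and no chosen locus overlapped another listed locus on its own strand. Near-identical copies elsewhere in the genome were not checked here.

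At the edges of the thresholds the chosen and the omitted loci were nearly alike. For the level, LOC_Os01g29469, LOC_Os06g36800 and LOC_Os02g53400 were just inside, with lower line means of 10.3, 10.4 and 10.5 RPKM. LOC_Os09g15810, LOC_Os11g01180 and LOC_Os08g30370 were just outside with 9.98, 9.93 and 9.71 RPKM. For the fold over WT, LOC_Os05g10414, LOC_Os03g17490 and LOC_Os02g41580 were just inside at 8.07, 8.13 and 8.17, and LOC_Os03g41419, LOC_Os07g03180 and LOC_Os04g52670 just outside at 7.99, 7.95 and 7.80. For the fold between lines, LOC_Os12g02320, LOC_Os07g12390 and LOC_Os02g39580 were just inside at 1.88, 1.88 and 1.84, and LOC_Os02g24612, LOC_Os10g21314 and LOC_Os10g38278 just outside at 2.01, 2.05 and 2.16. In all, 22 loci met the other conditions and were omitted for this last bound.

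The 75 loci were spread over all 12 chromosomes, from 3 on chromosome 4 (0.108% of its listed loci) to 11 on chromosome 2 (0.317%). The highest share of listed loci was on chromosome 11, with 7 (0.351%). Of the 75 loci, 39 (52%) were on the minus strand, beside 49.4% of all loci. Apart from the chromosome 5 pair, the closest 2 were LOC_Os03g07480 and LOC_Os03g07590, 62.6 kb apart with 8 listed loci between them. The locus nearest to OsTudor-SN was LOC_Os02g32814, 367 kb away on chromosome 2 with 30 listed loci between, and it averaged 30.02 RPKM in the complemented line, 25.4 RPKM in EM1084 and 2.52 RPKM in WT. The next loci were not high as a rule. Of 150 adjacent places in the locus order, 93 held genes that passed the filter and were not themselves chosen. Their median log2 fold of mean RPKM + 1 over WT was 0.88 in the complemented line and 1.18 in EM1084, beside 0.73 and 1.06 over all genes tested and 3.35 and 3.43 over the 75 loci. At 3 of the 93 (3.23%) this fold was at least 2 in both lines, beside 2.54% of all genes tested. On plain means, with no minimum level, 6 of the 93 (6.45%) were over 8 times WT in both lines. The matching share over all genes tested was not computed.

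**Figure D4:**
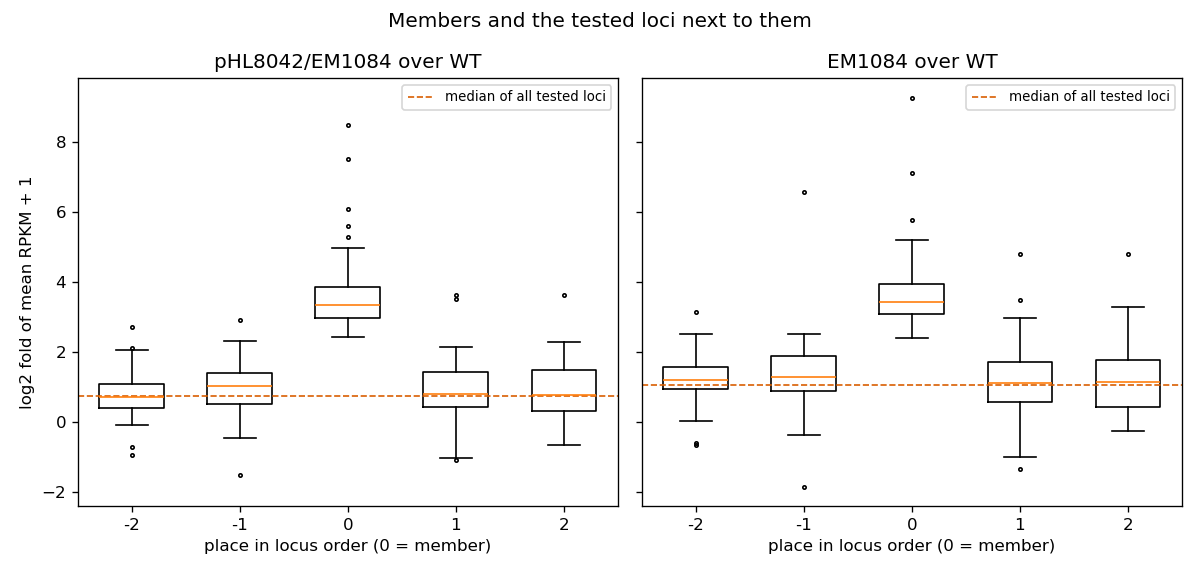
Log2 fold of mean RPKM + 1 over WT for the 75 loci (place 0) and the tested loci 1 and 2 places before and after them, the complemented line at the left and EM1084 at the right. Boxes are quartiles with the median, whiskers reach 1.5 times the box, and the dashed line is the median of all genes tested, near which the medians of the neighbours lie.

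The chosen loci were short and often had a length equal to their listed span. The thresholds set no limit on length, but length enters the level threshold, since RPKM is divided by it. Their median transcript length, derived from the read steps, was 1055 bases, beside 1673 bases over the 4320 other loci with both line means at 10 RPKM or more. Lengths under 1000 bases made up 45.3% of the 75 loci (34), beside 17.8% of these others and 16.1% of all genes tested. For 29 of the 75 (38.7%) the derived length equalled the whole listed span, as in a gene with no intron, beside 8.03% of the others and 12.8% of all genes tested. The listed span had a median of 1535 bases in the 75 loci and 3752 bases in the others. The 7 loci at 0 in WT had a median length of 639 bases. A short transcript gathers fewer reads at the same RPKM, and no test of these shares was made.

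**Figure D5:**
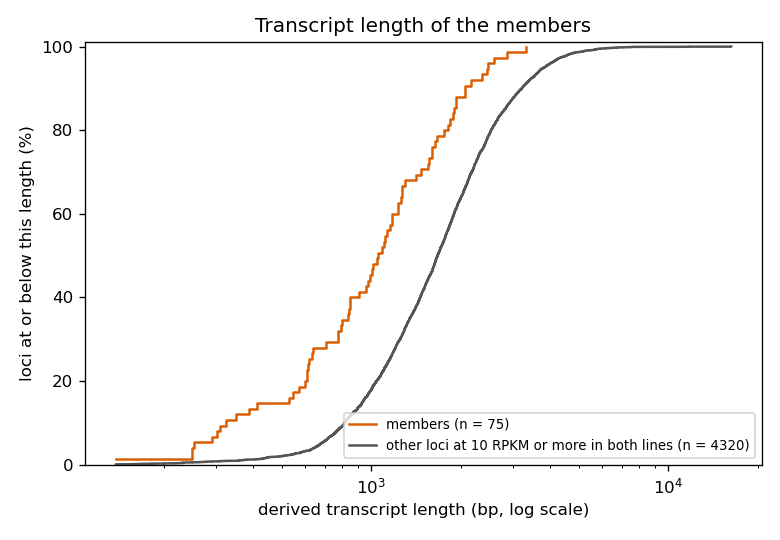
Share of loci at or below each derived transcript length (x axis, log scale), for the 75 loci and for the 4320 other loci with both line means at 10 RPKM or more. The curve of the 75 lies to the left, with a median of 1055 against 1673 bases.

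Under both scalings the 68 loci with WT reads were still higher in both lines than in WT, and their median distance from WT was shorter. Under median-of-ratios scaling the median fold over WT of the 68 loci with WT reads was 7.18 in the complemented line (4.13 to 76.7) and 5.86 in EM1084 (3.19 to 61.5). Under quantile normalization it was 7.55 (3.83 to 64.1) and 5.47 (2.98 to 49.5). In both, all 6 line libraries were above all 3 WT libraries at 74 of the 75 loci, with LOC_Os03g07590 again apart. The same held for 21.8% of all genes tested under median-of-ratios scaling and 20.4% under quantile normalization, and since the thresholds used these contrasts nothing is read from the counts. The thresholds were met as deposited and under both scalings by 20 loci, of which 5 were at 0 in WT. Among the others of the 20 were LOC_Os05g22716, LOC_Os05g22718, LOC_Os08g41030, LOC_Os11g02389 and LOC_Os11g40530 from the most abundant. LOC_Os11g02389, for one, was 18.3-fold over WT in the complemented line and 9.71-fold in EM1084 under median-of-ratios scaling.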

How the data were processed

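Total RNA was the input of the RNA-seq libraries (ScriptSeq v2), per the labels' protocols. The authors deposited 1 table of RPKM values for 31263 loci in 9 libraries, scaled to transcript length and mapped total, per the file headers. No source used here names the aligner, counter, genome build or annotation release, and the table's own coordinates are printed. Mapped totals, lengths and reads were derived from the whole-read steps of the values (281367 of 281367 whole within 0.001). Among values of 1 to 20 reads, 58.6% to 72.4% were even in a library, and the reason was not tested.

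The 15450 genes that reached 1 RPKM in 3 or more libraries were fitted as log2(RPKM + 1) with limma 3.58.1 (trend, robust) in R 4.3.3, all 9 libraries in 1 fit, two-sided. Calls used a Benjamini-Hochberg adjusted p under 0.05. The fit and the derivation of totals were tested on simulated data. P-values weigh a difference between groups against the spread between repeats, and do not speak for other lines or transformation events.

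The members and lists were chosen with earlier results of these data known. The text names the 15 members highest over both lines, the 5 highest of those at 0 in WT (all 7 are given), the 5 highest in WT, the 3 largest folds between lines each way, neighbouring members and those at each threshold. LOC_Os01g38650, LOC_Os02g32814, LOC_Os03g07480, LOC_Os06g33200, LOC_Os07g06500, LOC_Os08g10500, LOC_Os09g23730, LOC_Os10g21268, LOC_Os10g35810, LOC_Os10g37430 and LOC_Os11g24070, and the loci beside members, were named after their values were seen. Names of markers and of OsTudor-SN come from general knowledge of the rice literature. No sequence was at hand, and none is printed. Alternatives were other scalings, thresholds, pseudocount, filter, a replicate block and leaving out each library.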

Additional observations from a re-analysis of the deposited data

How the results depend on the processing

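The number of loci meeting the thresholds, 75 as deposited, was 28 under median-of-ratios scaling and 28 under quantile normalization, with 22 and 20 of the 75 among them. It was 29 with a fold minimum of 16, 309 with 4, 137 with a level minimum of 5 RPKM and 50 with ratios on RPKM + 1. Leaving out each library in turn gave 74 to 83 loci, and 62 of the 75 were kept every time. The 13 lost at least once were LOC_Os02g41580 and LOC_Os11g32400 without complemented library 1, LOC_Os01g29469, LOC_Os03g17490 and LOC_Os05g10414 without 2, and LOC_Os01g29469 and LOC_Os05g22716 without 3. They were LOC_Os03g07590, LOC_Os07g12390 and LOC_Os12g02320 without EM1084 library 2, and LOC_Os01g04370 and LOC_Os09g23730 without 3. They were LOC_Os03g17490 and LOC_Os05g10414 without WT library 1, LOC_Os02g41580, LOC_Os05g10414 and LOC_Os09g23730 without 2, and LOC_Os01g38650 and LOC_Os10g37430 without 3. Genes called under quantile normalization numbered 8043 for the complemented line against WT (12263 as deposited) and 8674 for EM1084 against WT (13604). With the replicate number as a block (replicate block) the calls were 12166, 13595 and, for the complemented line against EM1084, 8395 (8579 without it), and all 3 lay within 1.5 times the count without it. Same-numbered libraries deviated together little if at all (correlations of -0.0257 to 0.0601), and the main fit used no pairing. Such correlations cannot exclude a shared step that touched few genes or had a small effect. The log2 fold change of OsTudor-SN in EM1084 against WT turned to -0.17 with median-of-ratios scaling but did not change sign with quantile normalization, and the cause was not tested. Depth limits the WT values, which rest on as few as 5778627 mapped reads in a library.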

Other observations

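Around some of the chosen loci other transcripts also differed from WT, and these were picked out after their values were seen. LOC_Os07g33898, 34.2 kb from LOC_Os07g33997, went the other way, with 27.5 RPKM in the complemented line, 44.5 RPKM in EM1084 and 480.2 RPKM in WT. Beside LOC_Os10g31330, LOC_Os10g31320 at 1.89 kb averaged 2.36 RPKM in the complemented line, 94.6 RPKM in EM1084 and 0 in WT, and LOC_Os10g31420 at 46.1 kb averaged 0.933 RPKM, 107 RPKM and 0 in the same order. All 3 were at 0 in WT, but only LOC_Os10g31330 was as high in the complemented line as in EM1084, within 2-fold.

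Next to the chromosome 5 pair, LOC_Os05g22722 (139 bases further on the same strand) averaged 31.7 RPKM in the complemented line, 72.1 RPKM in EM1084 and 1.64 RPKM in WT, and its EM1084 libraries spread widely, at 123, 12.1 and 81.2 RPKM. Within 21.6 kb of LOC_Os10g21268, LOC_Os10g21314, LOC_Os10g21332 and LOC_Os10g21342 averaged 10.4, 13.6 and 30.02 RPKM in the complemented line, 21.4, 33.2 and 69.9 RPKM in EM1084 and 0.351, 0.146 and 1.10 RPKM in WT. These 4 loci were at least 8 times WT in both lines and were omitted for the bound between lines alone. Of the 320 loci within 100 kb of a chosen locus that reached 10 RPKM in a genotype, 5 (1.56%) met the level and the fold in both lines, beside 17 of 5860 (0.29%) elsewhere, and 4 of those 5 are the loci just named. Of the same 320 loci, 1 (0.31%) was at least 8-fold lower than WT in both lines, namely LOC_Os07g33898, beside 15 of 5860 (0.26%) elsewhere. At 31 of the 320 (9.69%) the EM1084 mean was at least 10 RPKM and 8 times WT, whatever the complemented mean. Elsewhere that held for 377 of 5860 (6.43%). No test was made of these shares.

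Identifiers that do not end in 0 made up 12 of the 75 loci (16%), 3 of the 7 at 0 in WT and 7.97% of all loci in the table.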
